A study of Mus musculus with 12 samples.

Results

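Polysome-associated mRNA of mouse bone marrow-derived macrophages was compared after polarization with IFNG (interferon gamma) and with IL4 (interleukin 4). The 6 libraries titled as polysome-associated mRNA, 3 for each cytokine, were taken from the 12 libraries of the series. All cells came from the marrow of naive female FVB mice and were differentiated in the same way, and no unpolarized cells were sequenced, so every difference below is IFNG relative to IL4. The IFNG group received 200 units/mL for 4 h and the IL4 group 40 ng/mL for 4 h. After about 10% of the cells had been set aside for total mRNA, the lysate of the rest was separated on a 5 to 50% sucrose gradient, and mRNA carrying more than 3 ribosomes was pooled and sequenced with the SmartSeq2 method. The labels do not say whether replicates were separate animals or cultures, so a p-value reflects only the scatter of these libraries, part or all of which could be technical. The libraries are bulk samples, in which a change in the number of cells that express a gene and a change in RNA per cell cannot be told apart.

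A message that carries several ribosomes sediments deep in a sucrose gradient, and the pool collected there is commonly taken as the set of efficiently translated messages, or translatome. IFNG signals through its receptor and the JAK kinases and switches on the transcription factor IRF1 and, with it, the genes of antimicrobial defence and antigen presentation. IL4 signals through IL4RA to STAT6, which binds palindromic sites and drives the alternative programme of macrophages, known for Retnla, Arg1, Chil3 and the mannose receptor Mrc1.

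The libraries held 8789480, 4898268 and 3189688 reads with IFNG and 5546605, 2563955 and 2746716 with IL4, so that 3 counts corresponded to 0.264 to 1.13 CPM, a count scaled to an equal effective library size. Lars2, a mitochondrial leucyl-tRNA synthetase, took 1.78, 12.8 and 29.3% of all reads of the IFNG libraries in replicate order, and between 5.15 and 18.1% of the IL4 libraries. The groups overlapped in this share (log2 difference 0.55, SE 0.74, edgeR adjusted p = 0.695). Lars2 was left out of the shares and ranks given below and of the totals under those shares. CPM values and fold changes use library sizes that include Lars2, except in the setting that leaves out Lars2 and the histones. In IFNG replicates 2 and 3 and in every IL4 library Lars2 took more reads than any other gene. Of the macrophage markers all 13 were tested, and their summed share was 1.48 to 2.32% of reads with IFNG and 1.10 to 1.33% with IL4. The labelled cell type was thus present in its markers, of which 6 were higher with IFNG (Adgre1, Mertk, Fcgr1, C1qa, C1qb and C1qc) and 0 lower, where 7.54% of all tested features were called higher and 6.58% lower at an adjusted p of 0.05. Leaving out IFNG replicate 3 or IL4 replicate 1, 2 or 3 left 3, 2, 2 and 3 of these calls. The marker sets of other cell types (dendritic cells, neutrophils, mast cells, red cells, megakaryocytes, stroma, B cells and T or NK cells) each came to at most 0.00523% of reads in every library. Xcr1 and Clec9a, known from cross-presenting dendritic cells, were the 2 of 7 dendritic markers with enough reads to be tested, and both were higher with IFNG. Xcr1 measured 10.7, 22.7 and 24.0 CPM with IFNG and 0.545, 0 and 0 CPM with IL4. Clec9a measured 6.08, 20.4 and 17.7 CPM with IFNG, and the IL4 libraries held 0 counts of it. With so few reads in the IL4 polysome libraries, neither gene could pass the filter on low counts through them. That both tested markers were higher is therefore not a result about dendritic markers as a set. The part of other cells in the results was not tested.

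With Lars2 left out, Actb, the cytoplasmic beta-actin gene, was the largest single gene in both pools by mean share. It took 3.55, 5.47 and 4.00% of reads in the IFNG libraries and 2.22, 3.35 and 4.66% in the IL4 libraries. The gene with the next largest mean share was Psap in the IFNG pool and Retnla, described below, in the IL4 pool. Psap, which encodes the precursor of the saposins of the lysosome, held 1.75 ± 0.452% with IFNG and 1.60 ± 0.665% with IL4 (mean ± SD, n = 3). Grn (progranulin) held 1.53 ± 0.501% and 1.16 ± 0.149%, and the lysosomal protease gene Ctsd 0.891 ± 0.213% and 0.659 ± 0.225%. The groups overlapped for each of these 4 genes and 0 of them passed the test. Some features join overlapping genes and were counted as 1. Of these, Ctsb_Fdft1 held 1.37 ± 0.552% with IFNG and 1.14 ± 0.154% with IL4 (ranks 4 and 5). Nt5dc2_Stab1 held 0.657 ± 0.186% and 0.532 ± 0.0868% (ranks 6 and 10), and neither feature was called. A share of reads grows with the length of a message as well as with its number, so an order of genes by share is not an order by molecules. Of the 100 features with the largest mean share, 57 were common to the 2 pools. The 100 largest features of each library took 30.1, 34.6 and 36.8% of reads with IFNG and 30.5, 34.5 and 35.3% with IL4. The 2 pools were not distinguishable in this concentration (33.8 ± 3.42% and 33.4 ± 2.57%, exact permutation test, two-sided, p = 0.9, where 3 against 3 libraries cannot go below 0.1).

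**Figure D1:**
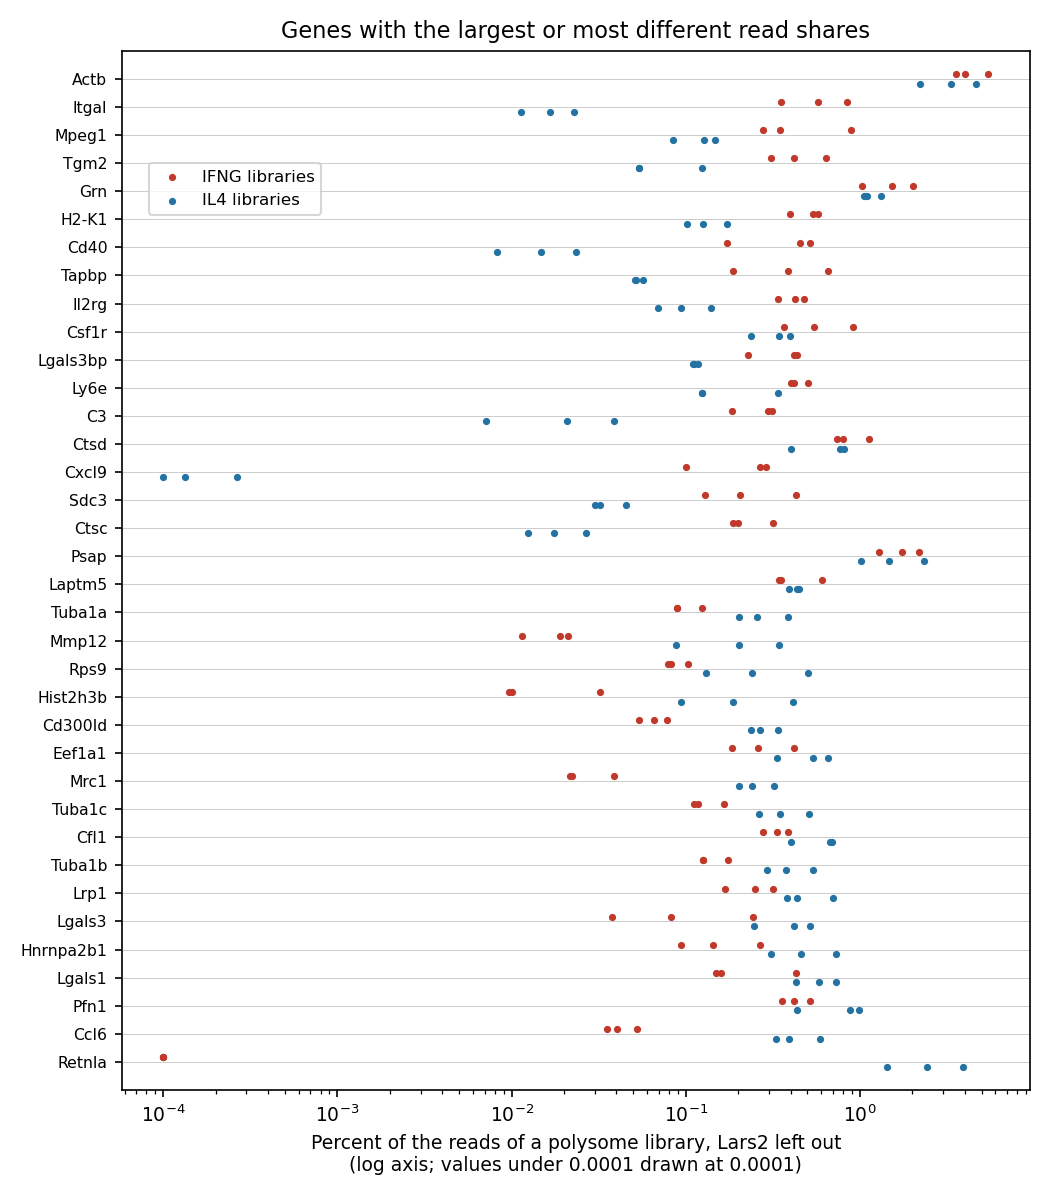
Percent of the reads of each polysome library, Lars2 left out, for the single genes with the largest share in either pool and those that gained or lost the most share (log axis, 1 point per library, red for IFNG and blue for IL4, values under 0.0001 drawn at 0.0001). Actb overlaps between the groups near 4%, Itgal lies between 0.354 and 0.839% with IFNG against at most 0.0229% with IL4, and Retnla between 1.44 and 3.91% with IL4 and at the floor with IFNG.

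The differences that passed the test lay in a minority of the tested features, and a feature that did not pass is not thereby shown to be unchanged. Genes called higher with IFNG, 786 of 10421 tested, took 17.5, 20.9 and 21.9% of the reads of the IFNG libraries and 5.04, 3.80 and 3.30% of the IL4 libraries. Genes called lower, 686 of 10421, took 3.30 ± 0.361% of the IFNG pool and 12.4, 16.7 and 18.7% of the IL4 pool. These sets were chosen by the same comparison, so the sums describe how much of each pool they make up and carry no test. Called here means a Benjamini-Hochberg adjusted p of at most 0.05 in edgeR's quasi-likelihood test, with the shares of features given above. That fit has no term for the replicate number. With the number added as a block, 911 genes were called higher and 896 lower. Among the 100 largest features of the IFNG pool 31 were called higher and 3 lower, and among those of the IL4 pool 22 were called lower and 3 higher. Each set of 100 was chosen by share in its own pool, so a changed gene can enter it through the group where it is high. These counts are therefore descriptive and carry no test.

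Among the called single genes the largest gain of share with IFNG was that of Itgal (chromosome 7, 127296139 to 127335137 of GRCm38), the alpha chain of the leukocyte integrin LFA-1. It took 0.354, 0.574 and 0.839% of reads with IFNG and 0.0229, 0.0114 and 0.0167% with IL4. The lowest IFNG library lay far above the highest IL4 library, and the gene moved from rank 1074 in the IL4 pool to rank 8 in the IFNG pool (log2 difference 5.22, SE 0.53, adjusted p = 4.36e-07). Mpeg1, which encodes the pore-forming perforin-2 of macrophages, took 0.277, 0.349 and 0.891% against 0.147, 0.128 and 0.0847%. Its gain came with 1 IFNG library well above the other two, and the groups did not overlap (log2 difference 2.18, SE 0.48, adjusted p = 0.00306). H2-K1, a classical MHC class I heavy chain, took 0.577, 0.395 and 0.541% against 0.172, 0.126 and 0.102%. Its log2 fold change was 2.00 (SE 0.52, adjusted p = 0.0116), and the adjusted p was 0.0531 without IL4 replicate 2 and 0.0663 without IL4 replicate 3. Reads of H2 genes can be shared among near copies, and the joined feature H2-D1_H2-L, counted as 1, was higher as well (0.565 ± 0.357% against 0.151 ± 0.0727%, adjusted p = 0.0249). Tgm2, a transglutaminase often listed as a mark of alternative activation, was higher with IFNG, at 0.421, 0.636 and 0.308% against 0.124, 0.0540 and 0.0541% (log2 difference 2.69, SE 0.59, adjusted p = 0.00324).

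The costimulatory receptor gene Cd40 (chromosome 2, 165055614 to 165071654) rose from rank 1185 to rank 20. It took 0.172, 0.514 and 0.451% of reads with IFNG and 0.00827, 0.0148 and 0.0233% with IL4 (log2 difference 4.69, SE 0.58). The other genes among the 12 largest called gains were Tapbp (tapasin, which loads peptides on class I), Il2rg (the common gamma chain of cytokine receptors), Lgals3bp, the complement gene C3, the chemokine gene Cxcl9, the heparan sulfate proteoglycan gene Sdc3 and Ctsc (cathepsin C). None of the 12 overlapped between the groups. Together they held 4.59 ± 1.12% of the IFNG pool and 0.708 ± 0.172% of the IL4 pool. Cxcl9, which recruits T cells, moved the farthest in rank, from 9552 to 44, with 0.268, 0.290 and 0.101% of reads with IFNG against at most 0.000266% with IL4. The call of Lgals3bp was lost without IFNG replicate 2 or any IL4 replicate (adjusted p 0.0521 to 0.0624). The joined feature Cxcl16_Zmynd15 held 0.481 ± 0.0901% against 0.0357 ± 0.0112% and was higher (log2 fold change 3.85, adjusted p = 2.39e-05). Csf1r, Ly6e, Laptm5 and Pfn1 were also among the 12 largest single genes of the IFNG pool, joined features left aside, without a call. Ly6e was called higher in limma-voom (adjusted p = 0.0419), with the replicate number as a block (0.0494) and without IL4 replicate 3 (0.0169). Csf1r, the receptor of the growth factor CSF1, measured 2789, 4901 and 7568 CPM against 2457, 1900 and 3359 CPM, with overlap, and was called higher without IFNG replicate 1 (adjusted p = 0.048).

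Retnla (chromosome 16, 48842609 to 48844461), a small secreted protein of the resistin family and a standard mark of IL4 stimulation, stood apart in the IL4 pool. It took 1.44, 3.91 and 2.44% of reads with IL4, more than any other gene but Lars2 and Actb on average. With IFNG it had 0.441, 0 and 0.369 CPM against 10311, 31249 and 20742 CPM with IL4 (log2 difference -16.01, SE 1.01, adjusted p = 1.36e-09). All IL4 libraries were high and all IFNG libraries were at or near 0. Its rank was 2 in the IL4 pool and 10712 in the IFNG pool. Ccl6, a CC chemokine of myeloid cells, took 0.330, 0.589 and 0.390% with IL4 against 0.0353, 0.0523 and 0.0402% with IFNG (log2 difference -3.27, SE 0.50, adjusted p = 8.78e-05). Mrc1 took 0.241, 0.202 and 0.323% with IL4 and 0.0221, 0.0218 and 0.0390% with IFNG (log2 difference -3.15, SE 0.47). Mmp12, the macrophage elastase, took 0.343, 0.202 and 0.0881% with IL4 against at most 0.0212% with IFNG (log2 difference -3.51, SE 0.50). For these genes the groups lay apart in every library.

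The 12 largest called losses of share took 0.922 ± 0.166% of the IFNG pool and 6.25 ± 1.63% of the IL4 pool, and beside the 4 genes above they included Cd300ld, Lgals3, Hnrnpa2b1, the histone gene Hist2h3b, the ribosomal protein gene Rps9 and the alpha-tubulin genes Tuba1a, Tuba1b and Tuba1c. The 3 alpha-tubulins have nearly the same coding sequence, so reads may be split among them, and their log2 fold changes were -1.42, -1.45 and -1.44. Each was called at an adjusted p between 0.0346 and 0.0386, and each lost the call without IFNG replicate 1, 2 or 3 and without IL4 replicate 2 or 3 (adjusted p 0.0521 to 0.208). Lgals3 (galectin-3) measured 1848, 738 and 314 CPM with IFNG and 3704, 3364 and 2104 CPM with IL4 (adjusted p = 0.049). It stayed called when IFNG replicate 1 was left out and not when any 1 of the other 5 libraries was. Hnrnpa2b1, an RNA-binding protein gene, overlapped between the groups and among the 6 leave-outs kept its call without IFNG replicate 2 or IL4 replicate 1 only. Cd300ld, an activating receptor gene of myeloid cells, measured 593, 487 and 548 CPM against 1697, 2137 and 2875 CPM and kept its call in all 15 other settings (log2 difference -2.04, SE 0.40, adjusted p = 0.00125). Lgals1, Cfl1, Pfn1, Eef1a1 and Lrp1 were among the 12 largest single genes of the IL4 pool, joined features left aside. They were not called, with adjusted p between 0.0876 and 0.329. Lgals1 was called lower in DESeq2, in limma-voom, with the replicate block and without IFNG replicate 1 (adjusted p 0.0134 to 0.0444).

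Across all tested features the median log2 fold change was -0.06, and called differences were large. The smallest called change was 1.10 on the log2 scale, the median of the called genes was 2.36 for those higher and -2.17 for those lower, and 271 higher and 170 lower genes differed by 8-fold or more in the fit. Of the called genes 760 higher and 651 lower had groups that did not overlap, while 31.2% of all tested features did not overlap. Calls were more frequent among messages abundant in at least 1 group. The classes use the larger of the 2 group means, so a changed gene can enter a high class through the group where it is high. The trend was not separated from this or from the greater number of counts. Of 141 features of at least 1000 CPM in 1 group, 33 were higher and 21 lower, against 94 and 127 of 3218 features under 10 CPM. A total of 49 higher genes had 0 counts in the IL4 libraries and 16 lower genes had 0 counts in the IFNG libraries. On simulated libraries of this size the test recovered 50 of 50 genes changed 8-fold, 28 of 50 changed 4-fold and 5 of 50 changed 2-fold. Small changes could thus be missed at this depth and replication. The changed genes had a mean of at least 10 CPM and counts were drawn from the fitted spread, so recovery of rarer messages was not tested. The counts of calls depended on single libraries. The higher count was 496 without IL4 replicate 2 and 503 without IL4 replicate 3, and the lower count was 355, 407, 438 and 351 without IFNG replicate 2, IFNG replicate 3, IL4 replicate 2 and IL4 replicate 3. Without IFNG replicate 1 there were 814 higher and 960 lower genes, so that lower calls became the majority.

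**Figure D2:**
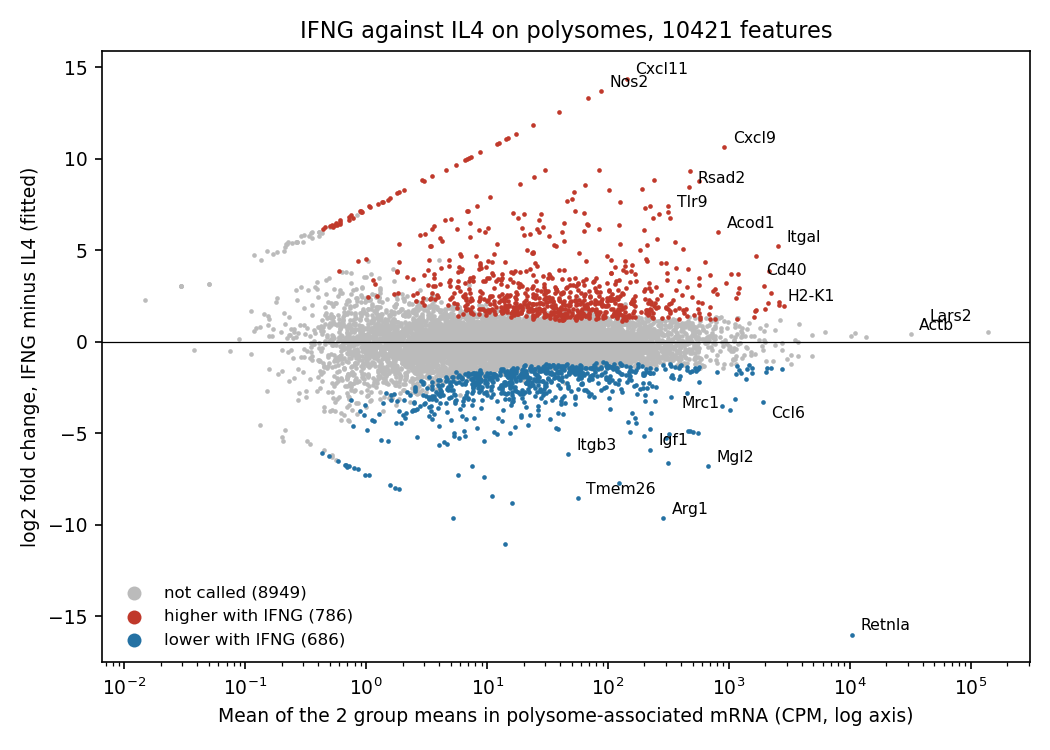
Fitted log2 fold change, IFNG minus IL4, of the 10421 tested features against the mean of both group means in CPM (log axis), with genes called higher in red (786), lower in blue (686) and others in grey (8949). Retnla lies lowest at -16.01, Cxcl11 highest at 14.39, and Actb and Lars2 at the right edge are not called. Points on straight lines are genes with 0 counts in 1 group, whose fitted values depend on the prior count.

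Several of the largest fitted increases were in messages with 0 counts in the IL4 libraries. Cxcl11 (chromosome 5, 92359544 to 92363296), a chemokine that shares the receptor CXCR3 with Cxcl9 and Cxcl10, measured 168, 426 and 260 CPM with IFNG and had 0 counts in each IL4 library, at least 1052-fold higher when set against 3 counts over the IL4 group. Nos2 (chromosome 11, 78920787 to 78960226), the inducible nitric oxide synthase, measured 121, 225 and 182 CPM against 0 counts, at least 667-fold higher. Marco, a scavenger receptor for bacteria, measured 100.4, 24.8 and 19.6 CPM against 0 counts, at least 297-fold higher. IFNG replicate 1 held 1140 of its 1311 counts, and without that library Marco was at least 97.8-fold higher. Iigp1, Gbp4, Gbp6 and Gbp10, all interferon-induced GTPases, were at least 444-, 303-, 127- and 118-fold higher. Cd38, an ectoenzyme that consumes NAD, measured 27.3, 30.3 and 28.4 CPM against 0 counts, at least 120-fold higher. Syt17 was at least 145-fold higher and Chrm3, a muscarinic acetylcholine receptor gene, at least 77.1-fold higher. IL4 replicate 1 held the most reads of its group, so each bound is lower without it, at least 449-fold for Cxcl11, 285-fold for Nos2, 127-fold for Marco, 51.4-fold for Cd38 and 32.9-fold for Chrm3. These bounds cover counting error only.

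The largest decreases after Retnla included Arg1 (chromosome 10, 24915207 to 24927470), the arginase that competes with nitric oxide synthase for arginine. It measured 0.176, 1.05 and 1.48 CPM with IFNG and 324, 375 and 1013 CPM with IL4 (log2 difference -9.62, SE 0.97, adjusted p = 4.36e-07). Tmem26 (chromosome 10, 68723746 to 68782655), a transmembrane protein gene, measured 0.529, 0 and 0 CPM against 121, 93.1 and 124 CPM (log2 difference -8.55, SE 0.68, adjusted p = 1.84e-08). The IL4 libraries agreed closely for Tmem26 and spread about 3-fold for Arg1. Rnase2a, a ribonuclease of the eosinophil-associated family, measured 1.06, 1.26 and 1.11 CPM against 167, 168 and 396 CPM (log2 difference -7.73, SE 0.76). The homeobox gene Msx3 and the claudin gene Cldn11 had 0 counts with IFNG and were at least 126-fold and 74.4-fold lower than with IL4, where Msx3 measured 6.95, 15.6 and 61.6 CPM. Without IL4 replicate 3 the bound of Msx3 was 58.6-fold, and without IFNG replicate 1 the bounds were 50.1-fold for Msx3 and 29.5-fold for Cldn11. With 1 count over the IFNG group, Penk measured 23.4, 69.8 and 2.27 CPM with IL4, an IL4 to IFNG ratio of 551 (95% counting interval 98.3 to 21817). The ratio of Penk was 335 without IL4 replicate 2, its highest library, and 219 without IFNG replicate 1. Lipn, also with 1 count, had a ratio of 382 (68.0 to 15144). Matk, with 2 counts, had a ratio of 195 (53.4 to 1616). Penk lost its call without IFNG replicate 1 or 3 and in limma-voom (adjusted p 0.0577 to 0.0729).

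The start-site windows of 3 genes show the kinds of site that STAT6 and the IRF factors are known to bind. They were chosen after the matches were seen, because they hold a match, as examples of an antiviral gene (Ifit1) and of genes of the IL4 side (Retnla and Tmem26). The sequences are the 250 bases before the annotated start, from RefSeq on GRCm38.p6, plus strand, with motif matches in capitals. Motifs searched on both strands were the STAT6 palindrome TTCNNNNGAA and the core of the interferon-stimulated response element GAAANNGAAA. Windows of this length held them in 5.85% and 2.98% of 32851 cases.
Ifit1, chr19:34640639-34640888: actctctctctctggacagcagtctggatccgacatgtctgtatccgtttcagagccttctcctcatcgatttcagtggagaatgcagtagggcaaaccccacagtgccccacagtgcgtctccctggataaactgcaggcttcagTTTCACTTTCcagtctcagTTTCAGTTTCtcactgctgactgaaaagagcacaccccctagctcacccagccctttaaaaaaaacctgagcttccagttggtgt
Retnla, chr16:48842359-48842608: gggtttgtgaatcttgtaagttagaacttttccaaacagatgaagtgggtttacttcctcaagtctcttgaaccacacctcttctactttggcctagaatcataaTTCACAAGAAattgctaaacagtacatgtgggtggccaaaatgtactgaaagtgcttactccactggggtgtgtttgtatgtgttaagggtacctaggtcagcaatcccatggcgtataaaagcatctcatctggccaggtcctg
Tmem26, chr10:68723496-68723745: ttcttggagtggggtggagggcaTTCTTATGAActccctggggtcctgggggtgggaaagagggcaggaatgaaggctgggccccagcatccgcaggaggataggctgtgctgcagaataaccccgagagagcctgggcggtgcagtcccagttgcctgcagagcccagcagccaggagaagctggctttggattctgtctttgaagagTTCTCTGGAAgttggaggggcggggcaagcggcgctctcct
In Ifit1 the capitals mark 2 response element cores on the minus strand, 104 to 95 and 85 to 76 bases before the start. In Retnla they mark a STAT6 palindrome at 145 to 136 bases, and in Tmem26 a STAT6 palindrome at 227 to 218 and another at 41 to 32 bases. A match is a description of the letters and not evidence of binding. Windows were found for 97 of the 147 named genes, and 83 of the 97 held neither motif, among them Cxcl9, Cd38, Marco, Mpeg1, H2-K1, Mrc1, Ccl6 and Mmp12. Among the named genes with a window, the STAT6 palindrome was found in 3 of 41 called higher with IFNG (Ifit2, Il1rn and Ptges). It was also found in 4 of 44 called lower (Retnla, Tmem26, Lgals3 and Rps26) and 1 of 12 not called (Pfn1). The response element core was found in 4 of the 41 (Ifit1, Rsad2, Cybb and Gbp2b), 1 of the 44 (Bub1b) and 1 of the 12 (Socs1). Of 27025 genes with a window, 6.76% held the palindrome and 3.46% the core. No test of the named counts against these shares was run. Windows were matched for 76.0% of the genes called higher and 78.4% of those called lower, too few for a share of motifs over either set.

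Among the regulators of the interferon gamma pathway, 11 of 19 tested genes were higher with IFNG and 0 lower, with a median log2 fold change of 2.43 against -0.06 for all features. Irf1, the transcription factor named above, measured 128, 345 and 276 CPM with IFNG and 7.90, 25.9 and 15.9 CPM with IL4 (log2 difference 3.93, SE 0.57, adjusted p = 4.07e-05). Every IFNG library lay above every IL4 library. Ciita and Nlrc5, the master regulators of MHC class II and class I genes, had log2 fold changes of 4.91 and 4.55. Usp18, which restrains interferon receptor signalling, and Batf2 had 4.43 and 4.40. The receptor genes were not called, with Ifngr1 at 28.3 against 33.6 CPM and Ifngr2 at 53.9 against 22.1 CPM. Socs1, the feedback inhibitor of JAK kinases, measured 15.8, 88.7 and 177 CPM against 3.13 to 41.6 CPM and overlapped between the groups (log2 difference 2.43, SE 0.98, adjusted p = 0.12). Socs1 was called higher without a filter on low counts (adjusted p = 1.56e-05), with the replicate block (0.000746) and without IL4 replicate 3 (0.0146).

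The interferon-induced GTPases, which attack the vacuoles of intracellular pathogens, were higher for 16 of 17 tested genes, against 7.54% of all features. Their median log2 fold change was 7.40, and groups did not overlap for any of the 17, against 31.2% of all features. Iigp1, Gbp4, Gbp6, Gbp10 and Gbp2b had 0 counts in the IL4 polysome libraries and could not pass the filter on low counts through them. For these members only a higher level with IFNG was possible, and the counts and median include them. Gbp2 measured 711, 1339 and 805 CPM with IFNG and 1.23, 0.708 and 2.65 CPM with IL4. Irgm1, at 556 ± 279.5 against 54.0 ± 15.1 CPM, had the smallest called change (log2 fold change 3.37). Gbp11, at 3.06 against 0.252 CPM, was not called. Because Gbp genes lie in clusters of close copies, as do Tgtp1 and Tgtp2, the split among family members is uncertain. Antiviral effectors and sensors were higher for 28 of 32 genes and lower for 0, with a median of 3.47. Rsad2, the viperin gene, measured 762, 1018 and 1019 CPM against 4.90, 2.12 and 0 CPM (log2 difference 8.45, SE 0.80). Oasl1, Ifi44, Ifit2 and Ifit1 had log2 fold changes of 8.33, 7.84, 6.79 and 6.65. The 4 genes without a call, Trex1, Ifitm3, Bst2 and Oas1a, had log2 fold changes of 1.36, 1.28, 1.13 and 1.12.

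**Figure D3:**
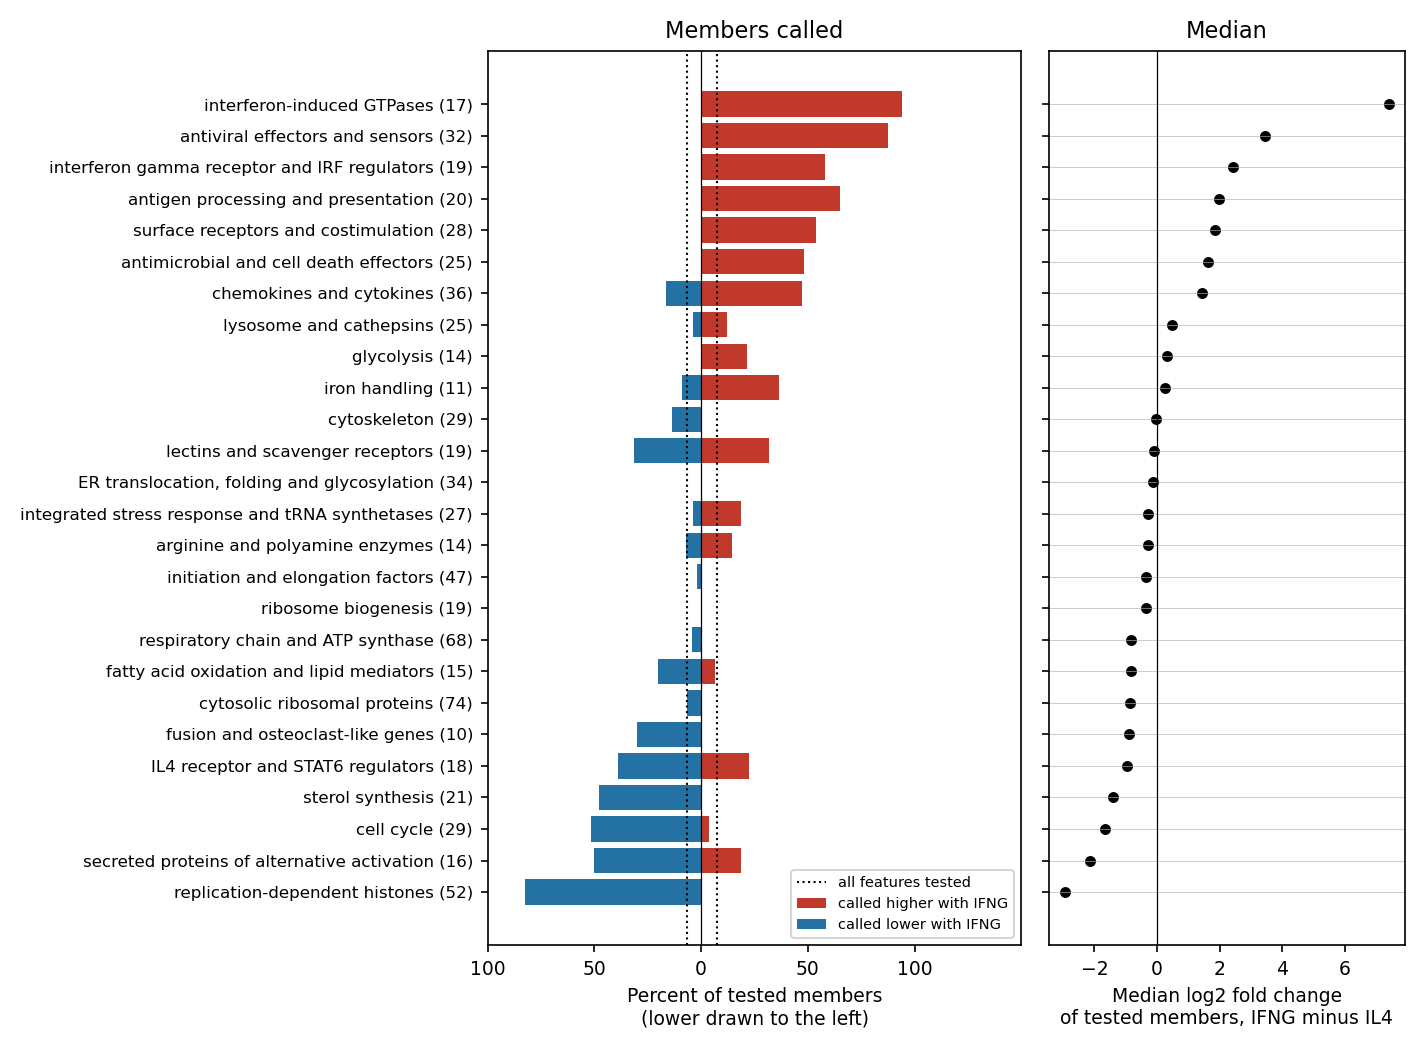
Percent of the tested members of each gene list called higher (red, to the right) or lower (blue, to the left) with IFNG, with dotted lines at 7.54% and 6.58% for all features, and the median log2 fold change of the tested members; numbers in brackets are tested members. The interferon lists reach a median of 7.40 at the top and the replication-dependent histones one of -2.94 at the bottom, while ER, initiation factor and ribosome biogenesis lists have few or 0 calls.

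Antigen processing and presentation genes were higher for 13 of 20 and lower for 0, with a median of 1.97, and 8 of the calls were left without IL4 replicate 3. The peptide transporter gene Tap1 measured 300, 304 and 265 CPM with IFNG and 21.8, 21.2 and 16.6 CPM with IL4 (log2 difference 3.86, SE 0.46, adjusted p = 3.47e-06). Its partner Tap2 measured 394 ± 111 against 42.3 ± 12.5 CPM, and the tapasin relative Tapbpl 151 ± 18.9 against 18.4 ± 0.689 CPM. On the class II side H2-DMa, which edits peptides, measured 116, 51.5 and 45.8 CPM against 14.3, 7.44 and 12.1 CPM. B2m and Cd74, at 1075 against 499.5 CPM and 1598 against 940.3 CPM, were not called, nor was the cathepsin gene Ctss (log2 fold change -0.56).

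Chemokines and cytokines went both ways, with 17 of 36 higher and 6 lower and a median of 1.44. Without IL4 replicate 2 the lower count was 3. Beside Cxcl9 and Cxcl11, Ccl5 measured 444, 737 and 264 CPM with IFNG and 0.954, 2.12 and 0 CPM with IL4 (log2 difference 8.86, SE 0.90). Il12b and Il27, subunit genes of cytokines that direct T cells, had 0 counts with IL4 and were at least 70.6- and 39.0-fold higher. Tnf measured 302, 667 and 587 CPM against 48.4, 15.6 and 14.4 CPM. The lower genes were Ccl6, Ccl9, Ccl17, Ccl24, Pf4 and Igf1. Igf1, a growth factor that alternatively activated macrophages secrete, measured 8.81, 9.46 and 3.32 CPM with IFNG and 277, 533 and 503 CPM with IL4 (log2 difference -5.89, SE 0.52, adjusted p = 6.92e-08).

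Antimicrobial and cell death effectors were higher for 12 of 25 genes and lower for 0, with a median of 1.63. Acod1, which makes itaconate, measured 1535, 1801 and 1499 CPM with IFNG and 48.1, 15.9 and 9.46 CPM with IL4 (log2 difference 6.01, SE 0.66). Zbp1, a nucleic acid sensor, and Ptgs2, the inducible cyclooxygenase, had log2 fold changes of 6.45 and 5.22. Of the oxidase that makes superoxide, the membrane subunit gene Cybb was higher at 1292 ± 151 against 188 ± 123 CPM. Surface receptor genes were higher for 15 of 28 and lower for 0, with a median of 1.86. Slamf7 measured 209, 332 and 211 CPM against 2.04, 0.354 and 0.756 CPM, and Tlr9, the receptor for CpG DNA, 298, 801 and 774 CPM against 3.68, 3.90 and 6.05 CPM (log2 fold changes 7.64 and 7.12). Ly6a had a log2 fold change of 7.41 and Cd69, with 0 counts under IL4, was at least 55.1-fold higher. Tlr4 and Tlr7 were not called.

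On the IL4 side, receptor and STAT6 regulators were higher for 4 of 18 genes and lower for 7, with a median of -0.95, and the lower count was 4 when features under a mean of 10 CPM were left out. The receptor chains themselves were on the higher side. Il4ra measured 79.0, 226 and 284 CPM with IFNG and 61.3, 32.9 and 72.6 CPM with IL4 (log2 difference 1.82, SE 0.52, adjusted p = 0.0204). The call of Il4ra was lost without IFNG replicate 2 or 3 and without IL4 replicate 1 or 2 (adjusted p 0.0524 to 0.113). Il13ra1, the alternative partner chain, measured 37.2, 33.0 and 44.3 CPM against 0.817, 0 and 0.378 CPM (log2 difference 6.21, SE 0.79), and Il2rg was described above. Stat6 was counted only within the joined feature Nab2_Stat6, which was not called (log2 difference -0.09, SE 0.40). The lower genes included targets and feedback regulators of cytokine signalling. Cish measured 0.441, 1.89 and 1.85 CPM with IFNG and 5.72, 33.6 and 29.9 CPM with IL4 (log2 difference -4.18, SE 0.79, adjusted p = 0.000791). Socs2, Irf4 and Egr2 had log2 fold changes of -5.45, -4.66 and -3.06. IL4 replicate 1 had the lowest level of Cish, Socs2, Irf4 and Egr2 among the IL4 libraries, and it still lay above every IFNG library.

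Secreted proteins of alternative activation were lower for 8 of 16 genes and higher for 3, with a median of -2.15. With a filter at a mean of 10 CPM, or with the polysome libraries alone in the fit, 5 lower calls were left. Beside Retnla, Fn1 (fibronectin) measured 8.99, 12.8 and 7.02 CPM with IFNG and 440, 353 and 93.8 CPM with IL4 (log2 difference -4.93, SE 0.71). Chil3, the chitinase-like protein Ym1, had 2 counts over the IFNG group and 14.6 ± 9.81 CPM with IL4 (IL4 to IFNG ratio 162, 95% counting interval 44.4 to 1349). The ratio of Chil3 was 107 without IL4 replicate 1 and 64.4 without IFNG replicate 1. The higher members were Tgm2, Mmp13 and Il1rn. Il1rn, the interleukin 1 receptor antagonist, measured 1047, 952 and 602 CPM with IFNG and 98.1, 48.2 and 17.8 CPM with IL4 (log2 difference 3.98, SE 0.58).

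Lectins and scavenger receptors split evenly, with 6 of 19 higher and 6 lower and a median of -0.10, and 3 higher calls were left without IL4 replicate 2. Mgl2 and Clec10a, C-type lectins for galactose-type sugars, measured 12.2 ± 5.43 against 1339 ± 600 CPM and 16.2 ± 6.33 against 432 ± 139 CPM (log2 fold changes -6.80 and -4.74). Timd4, a receptor for phosphatidylserine on dying cells, went the other way, with 459, 794 and 228 CPM with IFNG and 9.67, 18.1 and 1.89 CPM with IL4 (log2 difference 5.64, SE 0.75). Mertk and Axl, kinases of the same engulfment system, were higher too, with log2 fold changes of 1.82 and 2.81. Of 10 genes of cell fusion and osteoclast-like differentiation, 3 were lower and 0 higher. Itgb3, the beta3 integrin chain, measured 1.15, 1.68 and 1.11 CPM against 90.3, 103 and 81.7 CPM (log2 difference -6.12, SE 0.52). Cdh1 (E-cadherin) and the proton pump subunit gene Atp6v0d2 had log2 fold changes of -4.70 and -4.94.

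Of the arginine and polyamine enzymes, 2 of 14 were higher, 1 was lower and the other 11 were not called, with a median of -0.29. Nos2 and Ass1, which regenerates arginine from citrulline, were higher, Ass1 at 627, 690 and 399 CPM against 153, 119 and 83.2 CPM. Arg1 was the lower gene, joined by a further call without IL4 replicate 1, in DESeq2 and without a filter on low counts. Odc1, the entry enzyme of polyamine synthesis, measured 55.8 against 63.2 CPM and was not called. In lipid mediator and fatty acid oxidation genes, 3 of 15 were lower and 1 higher, with a median of -0.83. The cyclooxygenase genes moved in opposite directions. Ptgs1 measured 8.99, 7.57 and 24.4 CPM with IFNG and 159, 161 and 524 CPM with IL4 (log2 difference -4.40, SE 0.59), while Ptgs2 and the prostaglandin E synthase gene Ptges were higher (5.22 and 3.31). Alox5, the 5-lipoxygenase gene, was lower (log2 fold change -2.81). Acadm, the only lower gene of fatty acid oxidation in the list, lost its call without IFNG replicate 3 or IL4 replicate 2 (adjusted p 0.0671 and 0.0971).

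Sterol synthesis and uptake genes were lower for 10 of 21 and higher for 0, with a median of -1.40. Hmgcs1, an early enzyme of the mevalonate pathway, measured 6.17, 5.68 and 7.39 CPM with IFNG and 25.9, 27.6 and 22.3 CPM with IL4 (log2 difference -1.99, SE 0.50, adjusted p = 0.00874). Stard4, a sterol carrier, had a log2 fold change of -2.27. The count rested on few libraries, with 2 calls left without IFNG replicate 2 or IL4 replicate 1, 5 without IFNG replicate 3, and 4 and 6 without IL4 replicates 2 and 3. It was also 6 when Lars2 and the histones were left out of the library sizes. Cyp51 and Mvd, enzymes of the pathway, were among the calls that were lost in this way.

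Glycolysis genes were higher for 3 of 14 and lower for 0, with a median of 0.31. Pfkfb3, which makes the activator of phosphofructokinase, measured 58.9, 99.2 and 70.5 CPM with IFNG and 9.67, 5.31 and 5.29 CPM with IL4 (log2 difference 3.45, SE 0.46, adjusted p = 1.64e-05). Slc2a1, the glucose transporter GLUT1, and Hk1 were called at adjusted p = 0.0181 and 0.0329, and 1 call of the list was left without IFNG replicate 2, IL4 replicate 2 or IL4 replicate 3. In iron handling, 4 of 11 genes were higher and 1 lower. Tfrc, the receptor that takes up transferrin iron, measured 35.6, 32.2 and 48.0 CPM against 281, 260 and 548 CPM (log2 difference -3.24, SE 0.51, adjusted p = 0.000106). Slc40a1, the iron exporter ferroportin, measured 71.4, 32.6 and 52.8 CPM against 9.13, 2.48 and 7.56 CPM (log2 difference 3.00, SE 0.60, adjusted p = 0.00143). Tfrc and Slc40a1 thus moved in opposite directions, each without overlap. The other iron transport genes Slc11a1, Slc11a2 and Trf were called higher, as Slc40a1 was, at adjusted p between 0.0233 and 0.0268. They lost the call without IFNG replicate 3 or IL4 replicate 2 or 3, which left 1 higher call in the list.

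Lysosome and cathepsin genes made up 5.67, 5.98 and 8.01% of the IFNG pool and 6.73, 5.98 and 4.79% of the IL4 pool, with 3 of 25 higher and 1 lower. Ctsc, which activates serine proteases of granules, measured 1415, 1789 and 2649 CPM against 191, 99.2 and 149 CPM (log2 difference 3.73, SE 0.54). Ctsl went the other way at 79.9, 9.88 and 11.5 CPM against 404, 201 and 71.9 CPM, with overlap between the groups, and lost its call without IFNG replicate 2 or 3 or IL4 replicate 1 (adjusted p up to 0.0794). Without IL4 replicate 2 or 3, Ctsc was the single higher call.

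Cell cycle genes were lower for 15 of 29 and higher for 1, with a median of -1.66, and 8 lower calls were left without IFNG replicate 2 or IL4 replicate 3. Plk1, a kinase of mitosis, measured 5.90, 9.67 and 5.91 CPM with IFNG and 59.8, 33.6 and 131 CPM with IL4 (log2 difference -3.38, SE 0.58, adjusted p = 0.000304). Ube2c, which serves the anaphase-promoting complex, measured 10.5, 1.68 and 8.13 CPM against 56.3, 46.4 and 49.5 CPM. Mki67 and Top2a had log2 fold changes of -2.23 and -2.25. The exception was Ccnd2 (cyclin D2), at 736, 2363 and 552 CPM with IFNG against 65.5, 71.9 and 39.3 CPM with IL4 (log2 difference 4.37, SE 0.61, adjusted p = 2.98e-05). The higher count was 2 with the replicate block, in DESeq2, in limma-voom, above a mean of 10 CPM and without IL4 replicate 1. Replication-dependent histone genes were lower for 43 of 52 tested and higher for 0, with a median of -2.94. Their summed share was 0.0475, 0.0669 and 0.128% of reads with IFNG and 0.483, 0.975 and 2.51% with IL4. The IL4 libraries spread about 5-fold and every one lay above the IFNG libraries, and 24 lower calls were left without IL4 replicate 3. Histone genes are near copies of each other, so the split of reads among them is uncertain.

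Cytosolic ribosomal protein genes took 1.94, 1.29 and 0.777% of reads with IFNG and 2.43, 3.37 and 2.71% with IL4. The groups did not overlap in this sum, and the median log2 fold change of the 74 tested genes was -0.86. Gene by gene, the groups did not overlap for 21 of the 74, where 31.2% of all features did not overlap. Of the 74, 5 were called, all lower, a share near the 6.58% of all features. Rps14 measured 456, 282 and 131 CPM against 698, 863 and 874 CPM, and Rps26 190, 269 and 175 CPM against 339, 745 and 611 CPM (adjusted p = 0.0325 and 0.0235). The count was 36 without IFNG replicate 1, 0 without IFNG replicate 3, and 1 without IL4 replicate 2 or 3. It was 12 with the replicate number as a block, 12 in DESeq2, 9 in limma-voom, and 3 with the polysome libraries alone or with Lars2 and histones left out. Among the IFNG libraries, that with the smallest Lars2 share (1.78%) had the largest ribosomal protein share and that with the largest (29.3%) the smallest. The IL4 libraries, where the Lars2 share ran from 5.15% in replicate 1 to 18.1% in replicate 3, did not have this order, and the part of Lars2 in the result was not tested.

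Nuclear genes of the respiratory chain and ATP synthase encode the machinery of mitochondrial energy supply. They took 1.13, 0.690 and 0.504% of reads with IFNG and 1.22, 1.67 and 1.64% with IL4, with a median log2 fold change of -0.83. Gene by gene, the groups did not overlap for 16 of the 68 tested, where 31.2% of all features did not overlap. Of the 68 tested, 3 were called, all lower, against 6.58% of all features. These genes, Ndufb2, Ndufc2 and Atp5d, had adjusted p = 0.0457, 0.0451 and 0.0418. The count was 37 without IFNG replicate 1, 7 without IL4 replicate 1, and 0 without any 1 of the other 4 libraries. It was 14 with the replicate block, 9 in DESeq2, 7 without a filter on low counts, and 0 with the polysome libraries alone or with Lars2 and histones left out. IFNG replicate 1, the library with the smallest Lars2 share and the most reads, was the nearest of its group to the IL4 libraries in both lists.

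**Figure D4:**
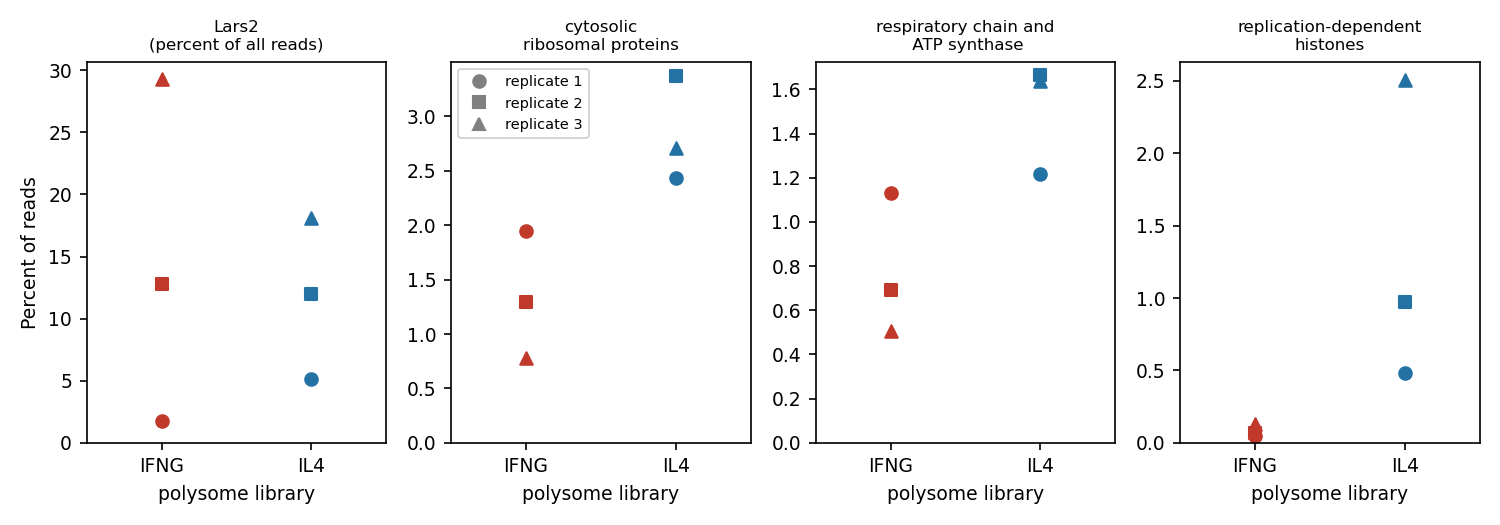
Percent of reads per polysome library (circle, square and triangle for replicates 1, 2 and 3) taken by Lars2, of all reads, and by 3 gene lists, of reads without Lars2. Lars2 spans 1.78 to 29.3% with IFNG and 5.15 to 18.1% with IL4, while ribosomal protein, respiratory chain and histone sums do not overlap between the groups.

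Initiation and elongation factors took 0.978 ± 0.152% with IFNG and 1.40 ± 0.143% with IL4, and 1 of 47 was lower. This gene, Eif2b2, a subunit of the nucleotide exchange factor of eIF2, was called at adjusted p = 0.0387 and lost the call without IFNG replicate 2 or 3 or IL4 replicate 2 or 3 and in limma-voom, with the polysome libraries alone and with Lars2 and histones left out (adjusted p 0.0507 to 0.268). The list had 5 lower calls without IFNG replicate 1, 2 without IL4 replicate 1 or with the block, and 3 in DESeq2. Of 19 ribosome biogenesis and 34 ER translocation, folding and glycosylation genes, 0 were called, with medians of -0.36 and -0.12. The groups did not overlap for 2 of the 19 and 5 of the 34, against 31.2% of all features. Npm1 measured 176, 237 and 38.4 CPM against 251 to 444 CPM (adjusted p = 0.214), and Rpn1 1497 ± 369 against 3084 ± 1191 CPM (adjusted p = 0.0959). Without IFNG replicate 1 these lists had 1 and 2 lower calls. DESeq2 gave 2 and the block 1 in the ER list, where Rpn1 was called in DESeq2 (adjusted p = 0.0408).

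In the integrated stress response and tRNA synthetase list 5 of 27 genes were higher and 1 lower, with a median of -0.29. Levels of Atf4, the transcription factor of the response, were 82.5 ± 18.7 CPM with IFNG against 17.2 ± 5.35 CPM, without overlap (log2 difference 2.26, SE 0.43, adjusted p = 0.000874). Wars, the tryptophanyl-tRNA synthetase known as interferon-inducible, measured 192, 123 and 206 CPM against 39.6, 33.3 and 32.9 CPM (log2 difference 2.30, SE 0.40). Both kept their call in every setting. Psat1 and Phgdh, neighbouring enzymes of serine synthesis, had opposite signs (2.16 and -2.55). Trib3 and Chac1, known targets of the response, were higher, while Asns (log2 fold change -0.29) and the other tested synthetase genes were not called. The higher count was 3 without IFNG replicate 3 or IL4 replicate 1 and in limma-voom, and 2 without IL4 replicate 2. The lower call of Phgdh was lost without IFNG replicate 2 or 3 or IL4 replicate 3.

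Cytoskeletal genes took 7.36 ± 1.33% of the IFNG pool and 7.93 ± 1.89% of the IL4 pool, with 0 of 29 higher and 4 lower. All 4 were tubulins, Tubb5 and the 3 alpha-tubulins named above, while 0 of the actin, Arp2/3, cofilin and talin genes were called. Without IFNG replicate 1 all 4 tubulins lost the call (adjusted p 0.0644 to 0.0843) and the Arp2/3 subunit gene Arpc3 was called lower (log2 fold change -1.45, adjusted p = 0.0363). The count was 0 without IFNG replicate 2 or 3 or IL4 replicate 2 or 3, with the polysome libraries alone, or with Lars2 and histones left out. With the replicate block, or without a filter on low counts, the beta-tubulin gene Tubb2b was called higher (adjusted p = 0.0324 and 2.36e-08).

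The same comparison in total mRNA gave 738 higher (7.08%) and 410 lower (3.93%) genes, and 897 of the 1472 genes called on polysomes were called there as well. Whether the polysome difference exceeded the total difference was tested as an interaction in the same fit, and 0 of 10421 features (0%) passed in edgeR, with 176 at an unadjusted p under 0.05 and a smallest adjusted p of 0.378. DESeq2 called 0 higher and 1 lower (232 at an unadjusted p under 0.05), and limma-voom 0 (133). Without the filter on low counts edgeR called 1 higher and 4 lower. A difference of the 2 fold changes was therefore not detectable for single genes at this depth and replication in edgeR with the filter on low counts, which does not show that they were equal. The smallest p belonged to Cxcl9, with log2 fold changes of 16.40 in total mRNA and 10.64 on polysomes. Igf1 had -3.99 and -5.89, Atf4 0.71 and 2.26, Ccl6 -1.63 and -3.27, and Retnla -14.77 and -16.01, none of them past the threshold for the difference. On polysomes Cxcl9 had only 13 counts over the IL4 group and Retnla only 6 over the IFNG group. Fold changes of this size rest on a side near the floor, so the gap between total mRNA and polysomes is uncertain for these genes.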

How the data were processed

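The deposited tables give read counts per gene, made by the authors from the sequenced reads. Per the submitters' processing notes the tools were HISAT2, HISAT and limma and the genome build mm10, and for counter, strand setting and annotation nothing is given in the sources used here. A further deposited column holds log2 values after TMM normalization by the authors, per the file headers, and was not used. Of 19549 features 830 join the symbols of overlapping genes and were counted as 1.

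All 12 libraries were fitted with edgeR 4.0.16 (R 4.3.3; quasi-likelihood test, TMM scaling, filterByExpr), and the contrast of the polysome groups was taken at a Benjamini-Hochberg adjusted p of 0.05. The SE was derived from the fold change and its F statistic. Checked on simulated libraries, the test made 1 false call among 10221 unchanged genes. These libraries were drawn independently from the fitted spread, with no effect of replicate number, so false calls in the real libraries were not measured. Alternatives were DESeq2 1.42.0, limma 3.58.1 with voom weights, other scalings and filters, and leaving out each polysome library. A planned scaling of shares by message length was not run, as no exon lengths were used here. Shares are percent of reads with Lars2 left out. Floors and ratio intervals (95%, exact) cover counting error only.

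Over 6984 genes, same-numbered libraries deviated together weakly (r = 0.25, 0.15 and 0.35 for numbers 1 to 3, against -0.37 to 0.23 between different numbers). The value for number 2 lay below the highest value between different numbers, so a pairing by replicate number was possible but not settled. The fit reported uses no block, and the counts with the replicate number as a block are given beside it. Named genes were those with the 12 largest shares in each pool, the 12 largest called gains and losses of share, the 10 largest fold changes in each direction among called genes of 10 CPM or more without overlap, up to 5 called members of each list (or 2 by level), and a few pathway genes, not all of which are reported here. Predicted and joined features were left out of all but the lists; the joined features, B2m and other uncalled genes described beside them were chosen after their values were seen. The comparison, members and lists were chosen with earlier results of these data known.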

Additional observations from a re-analysis of the deposited data

How the results depend on the processing

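The direction of the 130 named and called genes reversed in 0 of the 15 settings tried, and 115 of them were tested in all 15, of which 80 kept their call throughout. Of the other 15, left out by a filter or setting, 13 kept it wherever tested. All 130 were chosen by a call in these same libraries, where the smallest called log2 change was 1.10. A reversal was therefore unlikely from the start, and its absence is no separate support. Leaving out a library moved the number of genes called higher between 496 (IL4 replicate 2) and 814 (IFNG replicate 1), and the number called lower between 351 (IL4 replicate 3) and 960 (IFNG replicate 1), and the cause was not tested. With the replicate number as a block, to allow for a pairing, 911 genes were higher and 896 lower. Of the 1472 calls 1466 were kept, 0 named calls were lost, and 3 named genes (Ly6e, Lgals1 and Socs1) gained one. The block moved the calls of a list by more than 1.5 times in the ribosomal protein, respiratory chain, initiation factor, ER, cell cycle and cytoskeleton lists, with the values given there, and in the neutrophil markers (0 to 1 higher), and in no other list. Without Lars2 and histones 895 were higher and 524 lower. The median of all features moved by 0.11 in that setting and by 0.13 without IFNG replicate 3, both on the log2 scale. A difference beyond that in total mRNA was called lower for 1 gene in DESeq2, and for 1 higher and 4 lower genes without a filter on low counts, a setting added after seeing the data. The difference in the share of the 100 most abundant genes, 0.38 percentage points, changed sign with the 10 largest genes (-0.11) and ranged from -1.10 (without IFNG replicate 3) to 2.25 (without IFNG replicate 1). The uncalled gene Laptm5 ranged from -0.14 to 0.30 without 1 library. Length scaling was not run. Depth limits genes under 10 CPM, where 3 counts were up to 1.13 CPM.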
